A study of Mus musculus with 6 samples.

Results

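The genes of pyruvate dehydrogenase control in mouse liver are described here: the 4 pyruvate dehydrogenase kinases Pdk1, Pdk2, Pdk3 and Pdk4, the phosphatases Pdp1 and Pdp2, the complex subunits Pdha1, Pdhb and Dlat, and the mitochondrial pyruvate carrier subunit Mpc1. They were found by gene name in the deposited count table, where all 10 were present among 54532 genes, and all 10 passed the filter on low counts that left 13706 genes for testing. The samples were livers of Fam210aHKO mice, described as lacking Fam210a in hepatocytes, and of Ctrl mice, 3 of each, all at 5 weeks of age. The titles of all 3 knockout samples read Fam210aHKO, while the genotype labels of replicates 2 and 3 read Fam211a and Fam212a knockout. Fam210a encodes a mitochondrial protein. The sources used here give neither the promoter that drives the deletion, nor the alleles of the Ctrl mice, strain or sex. They do not say that each sample is its own animal, so the spread behind the p-values may be partly technical.

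Pyruvate dehydrogenase is the mitochondrial enzyme complex that turns pyruvate into acetyl-CoA, the step that commits carbohydrate carbon to oxidation or to fat synthesis. Its kinases phosphorylate the alpha subunit of the first enzyme of the complex and switch it off, and its phosphatases remove that phosphate and switch it on again. In liver the kinase Pdk4 is known for its induction in fasting, when fatty acids become the main fuel, while Pdk2 is a widely expressed kinase that is abundant in liver. The values here are mRNA levels, and neither phosphorylation nor enzyme activity was measured.

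Fam210a itself had 31.7, 28.6 and 44.2 CPM in Fam210aHKO livers, against 119, 136 and 162 CPM in Ctrl livers, where CPM is counts per 1e6 after trimmed-mean (TMM) scaling of the libraries. The remaining level was 25.1% of Ctrl, and the log2 fold change was -1.99 ± 0.194 (SE, n = 3 each, edgeR quasi-likelihood test, adjusted p = 4.42e-05). Library totals were 12.5 to 19.7 M counts in Fam210aHKO and 13.0 to 16.9 M in Ctrl (1 M is 1e6). The marker list of hepatocytes had 6 of 10 genes lower and none higher, with a summed level of 91928 to 115816 CPM in Fam210aHKO and 166536 to 249305 CPM in Ctrl. Most of that sum was Alb, with 68148 to 86553 CPM in Fam210aHKO and 110643 to 183868 CPM in Ctrl. Its groups did not overlap, but it was not called (log2 fold change -0.88 ± 0.791, SE, n = 3 each, edgeR quasi-likelihood test, adjusted p = 0.449). For comparison, 14.0% of all 13706 tested genes were called higher and 13.5% lower. All 6 markers of cycling cells were higher, with 78.6 to 132 CPM in Fam210aHKO and 4.35 to 12.9 CPM in Ctrl. Of the other lists, macrophage markers had 5 of 14 genes higher and none lower (390 to 752 CPM in Fam210aHKO, 453 to 599 CPM in Ctrl), cholangiocyte markers 2 of 4 higher and none lower (135 to 275 CPM in Fam210aHKO, 39.3 to 58.5 CPM in Ctrl), stellate cell markers 2 of 8 higher and none lower (430 to 638 CPM in Fam210aHKO, 330 to 386 CPM in Ctrl), and endothelial markers 2 of 8 lower and none higher (194 to 318 CPM in Fam210aHKO, 296 to 387 CPM in Ctrl). Most of the cholangiocyte sum was Spp1, with 127 to 256 CPM in Fam210aHKO and 32.7 to 49.7 CPM in Ctrl. On leaving out 1 library, 0 to 4 endothelial and 0 to 1 lymphocyte markers were lower, and 0 to 2 stellate cell and 0 to 2 erythroid markers higher. None of the 4 lymphocyte and 3 neutrophil markers tested was called, and either list summed to at most 7.36 CPM in any library. Erythroid markers had 1 of 5 genes lower and none higher, and summed to 238 CPM in Fam210aHKO replicate 3, against 24.0 and 40.9 CPM in the other Fam210aHKO livers and 83.0 to 86.0 CPM in Ctrl. Skeletal muscle and adipose tissue, which also express Pdk4, left at most 1.15 CPM of their summed markers in any library, with Ckm, Myh4, Myh7, Mb and Lep at 0 counts throughout. In bulk tissue, fewer cells of a type and less RNA per cell cannot be told apart, and the part of these shifts in the results below was not tested.

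At an adjusted p under 0.05, 2 of the 10 genes were higher in Fam210aHKO (Pdk4 and Pdp1) and 2 were lower (Pdk1 and Pdk2), while 6 were not called. Over all 13706 tested genes 27.5% were called, 14.0% higher and 13.5% lower, so 2 of 10 in each direction is near that background. Blocking on the replicate number gave 3 members higher (Dlat added) and 3 lower (Pdp2 added), against 35.7% of all tested genes called in that fit. The CPM of the 3 Fam210aHKO and 3 Ctrl libraries did not overlap for 6 of the 10 members, against 42.7% of all tested genes. The members' median log2 fold change was 0.12, against 0.02 over all tested genes. Within the kinase family the fasting-induced form rose 11.2-fold in mean CPM while the 2 most abundant kinases of Ctrl liver fell.

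The promoters of the 3 kinases that changed are shown because they moved in opposite directions: Pdk4 rose, and Pdk1 and Pdk2 fell. The sequences are RefSeq promoter windows on build GRCm38.p6, ending just before the gene's start, each read 5′ to 3′ on the gene's own strand. Capitals mark the motifs found, which are CCAAT (printed as ATTGG where it lies on the opposite strand) and the E-box CACGTG. Pdk4 lies on the minus strand (window chr6:5496310-5496528), Pdk2 on the minus strand (window chr11:95041372-95041621) and Pdk1 on the plus strand (window chr2:71872974-71873223).
Pdk4: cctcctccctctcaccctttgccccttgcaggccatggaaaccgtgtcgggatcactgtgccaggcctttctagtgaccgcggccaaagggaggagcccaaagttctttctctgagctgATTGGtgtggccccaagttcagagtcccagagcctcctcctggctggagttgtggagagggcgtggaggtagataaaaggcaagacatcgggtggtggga
Pdk2: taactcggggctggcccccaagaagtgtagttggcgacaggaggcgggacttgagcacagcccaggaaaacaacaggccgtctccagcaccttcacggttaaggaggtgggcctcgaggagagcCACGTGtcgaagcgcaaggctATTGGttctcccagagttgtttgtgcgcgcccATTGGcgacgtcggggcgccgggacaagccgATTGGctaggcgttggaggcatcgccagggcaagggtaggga
Pdk1: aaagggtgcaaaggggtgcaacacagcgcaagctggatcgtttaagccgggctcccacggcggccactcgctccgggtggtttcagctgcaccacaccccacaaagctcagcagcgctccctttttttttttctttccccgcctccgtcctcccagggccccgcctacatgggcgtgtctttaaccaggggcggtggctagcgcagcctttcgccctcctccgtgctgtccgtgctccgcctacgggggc

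A set of 6 motifs was searched on both strands in the 250 bases before the RefSeq start of 8 members with a usable window, and in 32851 promoter windows of all genes. CCAAT was found in 5 of the 8 (Pdk2, Pdk3, Pdk4, Pdp2 and Pdhb), against 33.8% of all promoters. The E-box CACGTG, the sequence bound by MYC and other basic helix-loop-helix factors, was found in Pdk2 and Pdp2, against 6.02% of all promoters. The hypoxia response element core ACGTG was found in Pdk2, Pdk3, Pdp2 and Pdhb, against 16.6% of all promoters, and each E-box also holds this core. The windows of the 8 members had 58.8% to 67.6% GC, against a median of 52.4% over all promoters. No comparison with promoters of like GC content was made. The nuclear receptor half-site AGGTCA (14.0% of all promoters), the FOXO site GTAAACA (3.17%) and the ATF4 composite site TGATGNAA (3.45%) were found in none of the 8. Pdk1 had no match to any of the 6 motifs in its window, and Pdk4 matched CCAAT alone. A match is a description of the letters, and the absence of a match says nothing about a factor's binding elsewhere.

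Pdk4, the kinase induced in fasting, had 102.5, 199.5 and 246.0 CPM in Fam210aHKO livers, against 10.8, 20.3 and 17.9 CPM in Ctrl livers. The lowest Fam210aHKO liver stood above the highest Ctrl liver, and Fam210aHKO replicate 1 was well below the other Fam210aHKO livers. The log2 fold change was 3.48 ± 0.330 (SE, n = 3 each, edgeR quasi-likelihood test, adjusted p = 3.81e-05), with an approximate 95% interval of 2.84 to 4.13. By log2 fold change Pdk4 ranked 158 of 13706 tested genes. The gene lies at chr6:5483351-5496309 on the minus strand (mm10, coordinates as deposited).

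Pdk2, the kinase with the highest level per length in Ctrl liver, had 56.8, 62.4 and 54.2 CPM in Fam210aHKO livers, against 99.5, 67.0 and 89.4 CPM in Ctrl livers. The highest Fam210aHKO liver and the lowest Ctrl liver were close, and the groups did not overlap. The mean level was 67.8% of Ctrl, with a log2 fold change of -0.56 ± 0.165 (SE, n = 3 each, edgeR quasi-likelihood test, adjusted p = 0.0270). This call is the least firm of the 4: it was lost on leaving out any library except Ctrl replicate 2 (adjusted p up to 0.0940 for the other 5), with no filter on low counts (adjusted p = 0.0502) and with libraries scaled by their totals (log2 fold change -0.12, adjusted p = 0.619).

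Pdk1, a kinase known as a target of hypoxia-inducible factor, had 35.6, 31.6 and 48.2 CPM in Fam210aHKO livers, against 61.6, 68.3 and 75.9 CPM in Ctrl livers. All 3 Fam210aHKO livers were below all 3 Ctrl livers. The mean level was 56.1% of Ctrl, with a log2 fold change of -0.83 ± 0.177 (SE, n = 3 each, edgeR quasi-likelihood test, adjusted p = 0.00519). With libraries scaled by their totals the log2 fold change was -0.38 and the call was lost (adjusted p = 0.103). That scaling moved the median of all tested genes up by 0.45 on the log2 scale, so relative to other genes Pdk1 stayed below the middle.

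Pdk3, a kinase of low abundance in liver, was near the limit of detection, with 19, 25 and 44 counts in Fam210aHKO and 5, 19 and 9 counts in Ctrl. Its level was 0.909, 1.72 and 1.93 CPM in Fam210aHKO livers, against 0.435, 1.54 and 0.605 CPM in Ctrl livers, and the groups overlapped. The log2 fold change was 0.82 ± 0.484 (SE, n = 3 each, edgeR quasi-likelihood test, adjusted p = 0.241). With libraries scaled by their totals it was called higher (log2 fold change 1.28, adjusted p = 0.0367). A count of 3 corresponded to 0.132 to 0.206 CPM in Fam210aHKO and 0.202 to 0.261 CPM in Ctrl.

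**Figure D1:**
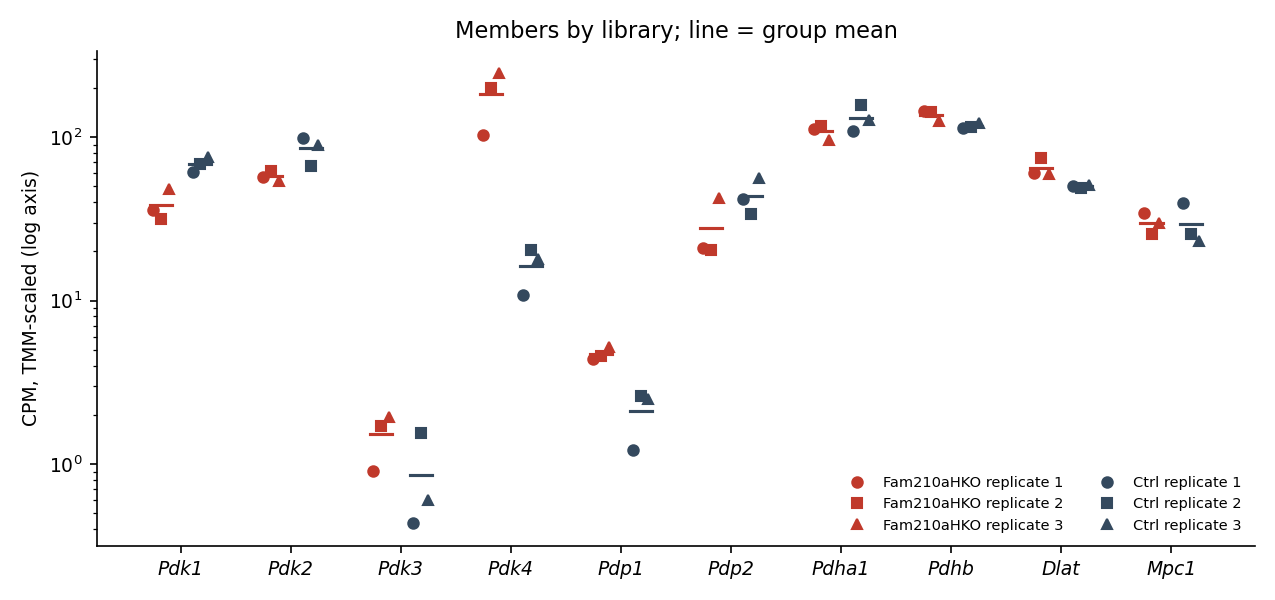
CPM (TMM-scaled, log axis) of each member in every library, with Fam210aHKO in red and Ctrl in dark blue, a marker shape for each replicate number and a line at the group mean. Pdk4 lies between 102.5 and 246.0 CPM in Fam210aHKO and between 10.8 and 20.3 CPM in Ctrl, while Pdha1, Pdk3, Pdp2 and Mpc1 overlap between the groups.

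Levels of different genes can be compared only per length, and for this the deposited FPKM values (fragments per kilobase and per 1e6 of a library size) were used, as shares within each library, which do not depend on scaling between libraries. Pdk4 made up 56.0%, 69.9% and 74.4% of the summed FPKM of the 4 kinases in Fam210aHKO livers, against 7.21%, 15.9% and 11.7% in Ctrl livers. Pdk2 made up 34.5%, 24.3% and 18.2% in Fam210aHKO livers, against 73.8%, 58.3% and 65.2% in Ctrl livers. The leading kinase mRNA was thus Pdk4 in every Fam210aHKO liver and Pdk2 in every Ctrl liver. Shares of a sum depend on each other, so the rise of Pdk4 by itself lowers the shares of the other kinases. Mean FPKM of Pdk2 itself was 25.6 in Fam210aHKO and 39.6 in Ctrl, and that of Pdk1 was 6.93 and 12.9.

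Pdk1 made up 8.78%, 4.99% and 6.58% of the kinase FPKM in Fam210aHKO livers, against 18.6%, 24.2% and 22.5% in Ctrl livers. Pdk3 stayed below 1.7% of the kinase FPKM in every library, at 0.769% ± 0.0773 in Fam210aHKO and 0.867% ± 0.689 in Ctrl (SD, n = 3 each). The ratio of Pdk4 to Pdk2 was 1.63, 2.88 and 4.09 in Fam210aHKO livers, against 0.0976, 0.273 and 0.180 in Ctrl livers. By contrast, the ratio of Pdk1 to Pdk2 overlapped between the groups, at 0.274 ± 0.0796 in Fam210aHKO and 0.337 ± 0.0817 in Ctrl (SD, n = 3 each). No test was run on these shares, and with 3 against 3 libraries an exact permutation test could not go below p = 0.10.

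**Figure D2:**
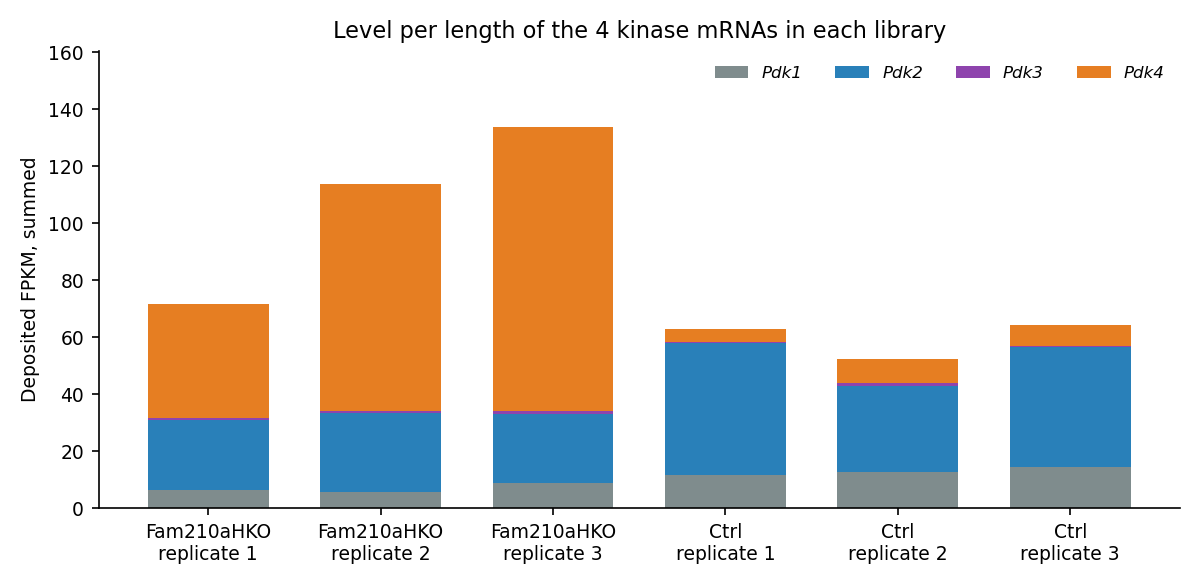
Deposited FPKM of the 4 kinases, stacked for each library, with the 3 Fam210aHKO livers on the left and the 3 Ctrl livers on the right. Pdk4 is the largest part of each Fam210aHKO bar (56.0% to 74.4%), and Pdk2 is the largest part of each Ctrl bar (58.3% to 73.8%).

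Of the phosphatases, which oppose the kinases, Pdp1 was called and Pdp2 was not. Pdp1, the calcium-activated phosphatase, had 4.40, 4.61 and 5.18 CPM in Fam210aHKO livers, against 1.22, 2.60 and 2.49 CPM in Ctrl livers. Every Fam210aHKO liver was above every Ctrl liver, with a log2 fold change of 1.16 ± 0.293 (SE, n = 3 each, edgeR quasi-likelihood test, adjusted p = 0.0131). Its depth was 67 to 118 counts in Fam210aHKO and 14 to 37 counts in Ctrl.

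Pdp2, the phosphatase that is more abundant in liver, had 20.9, 20.4 and 42.4 CPM in Fam210aHKO livers, against 41.7, 33.9 and 55.9 CPM in Ctrl livers. Fam210aHKO replicate 3 reached the Ctrl range, and the groups overlapped. The log2 fold change was -0.65 ± 0.282 and was not called (SE, n = 3 each, edgeR quasi-likelihood test, adjusted p = 0.113). With the replicate number as a block it was called lower (log2 fold change -0.71, adjusted p = 0.00266), and without Fam210aHKO replicate 3 also (log2 fold change -1.08, adjusted p = 0.00449). That library had the highest erythroid marker sum, and Pdk1 and Pdk4 were also highest among Fam210aHKO livers there. Without it Pdk4 and Pdk1 kept their calls (log2 fold changes 3.21 and -1.03).

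By FPKM Pdp1 made up 18.8% ± 4.78 of both phosphatases in Fam210aHKO and 5.90% ± 2.69 in Ctrl (SD, n = 3 each), without overlap, so Pdp2 remained the larger part in every library. The summed FPKM of the kinases was 13.3 ± 3.78 times that of the phosphatases in Fam210aHKO and 5.12 ± 0.817 times in Ctrl (SD, n = 3 each), and the lowest Fam210aHKO ratio (10.96) was above the highest Ctrl ratio (5.62). Of the kinases in that sum only Pdk4 was called higher. The summed phosphatases relative to Pdha1 overlapped between the groups, at 0.211 ± 0.105 in Fam210aHKO and 0.239 ± 0.0757 in Ctrl (SD, n = 3 each).

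None of the subunits of the complex was called. Pdha1, the alpha subunit that the kinases phosphorylate, had 113, 117 and 96.7 CPM in Fam210aHKO livers, against 109, 156 and 128 CPM in Ctrl livers, with a log2 fold change of -0.27 ± 0.162 (SE, n = 3 each, edgeR quasi-likelihood test, adjusted p = 0.251). Its groups overlapped, and its sign turned with library totals (log2 fold change 0.19). Pdhb, the beta subunit of the same enzyme, had 144, 143 and 126 CPM in Fam210aHKO livers, against 113, 115 and 122 CPM in Ctrl livers, which did not overlap. Its log2 fold change was 0.24 ± 0.133 (SE, n = 3 each, edgeR quasi-likelihood test, adjusted p = 0.216).

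Dlat, the acetyltransferase core of the complex, had 60.3, 74.3 and 59.1 CPM in Fam210aHKO livers, against 50.3, 48.8 and 50.7 CPM in Ctrl livers. The groups did not overlap, and the log2 fold change of 0.37 ± 0.142 missed the threshold (SE, n = 3 each, edgeR quasi-likelihood test, adjusted p = 0.0763). With the replicate number as a block Dlat was called higher (log2 fold change 0.36, adjusted p = 0.0417). With libraries scaled by their totals Dlat (0.82, adjusted p = 0.00161) and Pdhb (0.69, adjusted p = 0.00356) were called higher.

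Within libraries, the FPKM ratio of Pdhb to Pdha1 was 1.23, 1.18 and 1.26 in Fam210aHKO livers, against 1.001, 0.712 and 0.923 in Ctrl livers. The ratio of Dlat to Pdha1 was 0.408, 0.485 and 0.467 in Fam210aHKO livers, against 0.352, 0.238 and 0.303 in Ctrl livers. Neither ratio overlapped between the groups, so relative to Pdha1 both subunit mRNAs were higher in every Fam210aHKO liver. Of the 50-base windows of Pdhb, 10.8% occur in the processed pseudogene Gm6123, which had at most 5 counts in any library. How reads that match both were counted is not stated. Reads of Pdha1 can be shared with the opposite-strand gene Map3k15, since 12.5% of its 50-base windows occur there. Map3k15 had at most 22 counts in any library. Those counts do not show how many Pdha1 reads were left out as shared, since strand settings are not stated.

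Mpc1, a subunit of the carrier that brings pyruvate into mitochondria, had 34.2, 25.4 and 29.9 CPM in Fam210aHKO livers, against 39.8, 25.7 and 23.3 CPM in Ctrl livers. The groups overlapped, and the log2 fold change was 0.01 ± 0.211 (SE, n = 3 each, edgeR quasi-likelihood test, adjusted p = 0.976), with an approximate 95% interval of -0.40 to 0.43. The value is uncertain in part because of the processed pseudogene Mpc1-ps (chr12:110858565-110858894), which held more counts than Mpc1, at 57.6 ± 3.26 CPM in Fam210aHKO and 60.0 ± 8.41 CPM in Ctrl (SD, n = 3 each). Of 2175 windows of 50 bases in Mpc1, 240 occur in the pseudogene. Another 332 occur in the overlapping opposite-strand gene 4930506C21Rik, which had at most 17 counts in any library. The sources used here do not say how reads that match several of these genes were counted. Summing Mpc1 and Mpc1-ps before the fit gave a log2 fold change of -0.04 (edgeR quasi-likelihood test, adjusted p = 0.895).

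**Figure D3:**
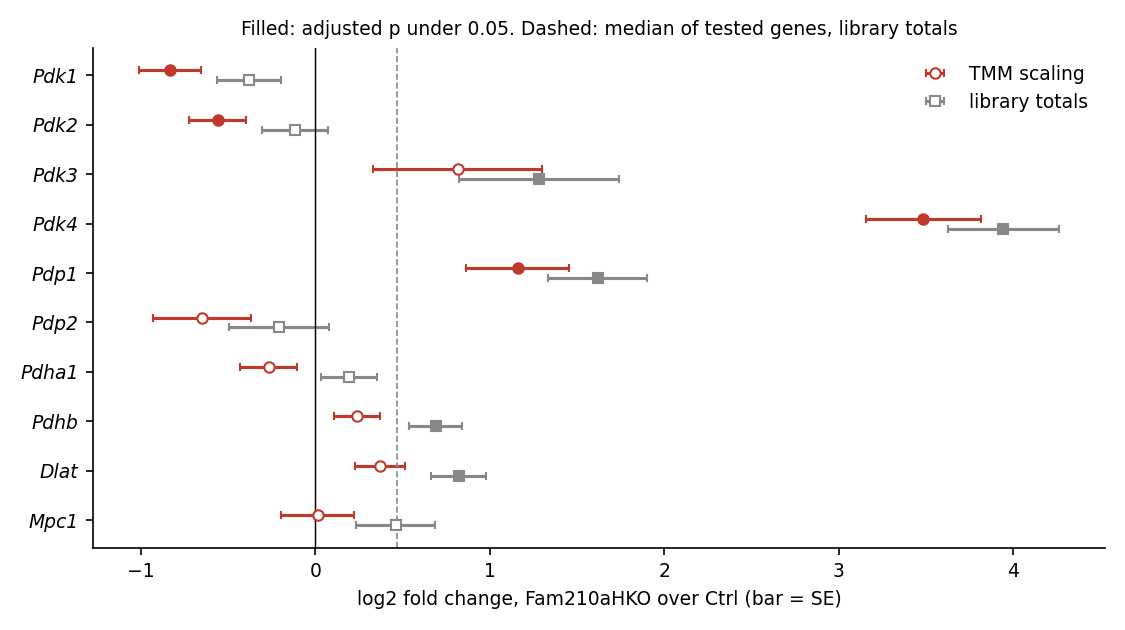
Log2 fold change of each member, Fam210aHKO over Ctrl, with bars of 1 SE, under TMM scaling (red circles) and with library totals (grey squares); filled symbols have adjusted p under 0.05 and the dashed line is the median of tested genes with library totals. Pdk4 and Pdp1 are filled under both scalings, and Pdk1 and Pdk2 under TMM scaling alone.

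By mean FPKM, the order of levels in Fam210aHKO liver was Pdk4 (73.1), Pdhb (49.8), Pdha1 (40.8), Pdk2 (25.6), Mpc1 (20.01), Dlat (18.5), Pdk1 (6.93), Pdp2 (6.89), Pdp1 (1.47) and Pdk3 (0.833). In Ctrl liver the order was Pdha1 (51.4), Pdhb (44.3), Pdk2 (39.6), Mpc1 (20.8), Dlat (15.0), Pdk1 (12.9), Pdp2 (11.3), Pdk4 (6.80), Pdp1 (0.682) and Pdk3 (0.489). Pdk4 thus led the Fam210aHKO order by mean and had rank 8 in Ctrl. It did not lead in Fam210aHKO replicate 1, where Pdk4 had 40.2 FPKM, Pdhb 51.4 and Pdha1 41.6. In Fam210aHKO the ranges of Pdk4 and Pdhb, of Mpc1 and Dlat, and of Pdk1 and Pdp2 overlapped, so those neighbours do not differ beyond their spread. In Ctrl the overlapping neighbours were Pdha1 and Pdhb, Pdhb and Pdk2, Dlat and Pdk1, Pdk1 and Pdp2, and Pdp1 and Pdk3. Among tested genes Pdk4 stood at percentile 94.5 by FPKM in Fam210aHKO and at percentile 59.9 in Ctrl.

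The 5 genes whose pattern over the 6 libraries was most like that of Pdk4, by root mean square difference of centred log2 CPM among genes averaging at least 1 CPM over all libraries, were Dhrs9 (0.215), Fbp2 (0.252), Kif20b (0.277), Cdk1 (0.308) and Foxm1 (0.355). Dhrs9 encodes a retinol dehydrogenase and Fbp2 a fructose bisphosphatase best known from muscle, and Kif20b, Cdk1 and Foxm1 are genes of the cell cycle. Fbp2, Kif20b and Foxm1 were under 1 CPM in every Ctrl liver and passed that minimum only through their Fam210aHKO levels. Dhrs9 had 8.08, 13.6 and 19.96 CPM in Fam210aHKO livers, against 0.957, 1.79 and 1.81 CPM in Ctrl livers.

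The other listed genes of the complex, its regulation and the pyruvate carrier did not pass the test. Of Mpc2, Pdhx, Dld and Pdpr, none was called in either direction (1 lower with the replicate block, without Ctrl replicate 1 or without Ctrl replicate 3). Mpc2, the partner of Mpc1 in the carrier, averaged 157 ± 12.2 CPM in Fam210aHKO and 204 ± 26.4 CPM in Ctrl (SD, n = 3 each), with log2 fold change -0.37 (edgeR quasi-likelihood test, adjusted p = 0.0881). Dld, the dihydrolipoamide dehydrogenase shared by related complexes, averaged 173 ± 22.6 CPM in Fam210aHKO and 184 ± 29.6 CPM in Ctrl (SD, n = 3 each), with log2 fold change -0.09 (edgeR quasi-likelihood test, adjusted p = 0.735). Pdha2 was at 0 counts in every library.

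Dlat carries lipoic acid, and the first enzyme of the complex needs thiamine pyrophosphate. Of 16 tested genes of lipoate synthesis and attachment 1 was higher, Iba57, an iron-sulfur cluster factor (19.1 ± 1.56 CPM in Fam210aHKO and 12.5 ± 2.26 CPM in Ctrl), and 1 was lower, Oxsm, a mitochondrial fatty acid synthesis enzyme (32.6 ± 1.87 CPM in Fam210aHKO and 51.5 ± 5.52 CPM in Ctrl; SD, n = 3 each). The edgeR quasi-likelihood test gave log2 fold change 0.61 (adjusted p = 0.0265) for Iba57 and -0.66 (adjusted p = 0.00584) for Oxsm. Of all tested genes 14.0% were higher and 13.5% lower. With library totals 6 were higher and 0 lower in this list, against 5846 and 868 of 13706 tested genes. With the replicate block 1 was higher and 3 were lower, against 2434 and 2462 of all tested genes. None of 4 tested thiamine genes was called, among them the transporter Slc19a2 (94.3 ± 12.2 CPM in Fam210aHKO and 108 ± 6.35 CPM in Ctrl; SD, n = 3 each).

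Other routes of pyruvate had 3 genes higher and 7 lower of 18 tested, against 14.0% and 13.5% of all tested genes. Their median log2 fold change was 0.03. With library totals 8 were higher and 4 lower, against 5846 and 868 of 13706 tested genes. With the replicate block 5 were higher and 7 lower, against 2434 and 2462 of all tested genes. The genes that rose included Pck2, the mitochondrial phosphoenolpyruvate carboxykinase, with 22.0, 20.6 and 15.4 CPM in Fam210aHKO livers, against 4.87, 4.47 and 3.56 CPM in Ctrl livers (log2 fold change 2.17 ± 0.211, SE, n = 3 each, edgeR quasi-likelihood test, adjusted p = 4.48e-05). Pck1, the cytosolic form, was far more abundant and was lower, at 1316 ± 328 CPM in Fam210aHKO and 3516 ± 804 CPM in Ctrl (SD, n = 3 each). Its log2 fold change was -1.42 (edgeR quasi-likelihood test, adjusted p = 0.00339). Me1, the cytosolic malic enzyme, rose by 0.85 and Me2, a mitochondrial malic enzyme, by 0.93 on the log2 scale (edgeR quasi-likelihood test, adjusted p = 0.00351 and 0.0254). Among those that fell, Sds, the serine dehydratase that makes pyruvate from serine, had 26.4, 32.2 and 19.1 CPM in Fam210aHKO livers, against 160, 116 and 136 CPM in Ctrl livers (log2 fold change -2.41 ± 0.208, SE, n = 3 each, edgeR quasi-likelihood test, adjusted p = 2.11e-05). Ldhd, the D-lactate dehydrogenase, fell by 1.78 and Agxt, the alanine-glyoxylate aminotransferase, by 1.12 on the log2 scale (edgeR quasi-likelihood test, adjusted p = 1.72e-05 and 0.000481).

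Of 10 tested genes of acetyl-CoA use and supply outside the complex 1 was higher and 3 were lower. Of all tested genes 14.0% were higher and 13.5% lower. With library totals 3 of the list were higher and 1 lower, against 5846 and 868 of 13706 tested genes. With the replicate block 2 were higher and 4 lower, against 2434 and 2462 of all tested genes. Cs, the citrate synthase that takes up acetyl-CoA, had 272, 304 and 210 CPM in Fam210aHKO livers, against 117, 100.3 and 113 CPM in Ctrl livers (log2 fold change 1.25 ± 0.167, SE, n = 3 each, edgeR quasi-likelihood test, adjusted p = 0.000322). The lower genes were Acss2, an acetyl-CoA synthetase (log2 fold change -1.10), Acat1, a mitochondrial thiolase (-0.87), and Acaa2, a thiolase of beta-oxidation (-0.74; edgeR quasi-likelihood test, adjusted p 0.000334, 0.00161 and 0.00964).

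The related 2-oxoacid dehydrogenase complexes had no gene higher and 3 of 9 lower, against 14.0% and 13.5% of all tested genes. With library totals 1 was higher and 1 lower, against 5846 and 868 of 13706 tested genes. The 3 lower genes were Dhtkd1, the 2-oxoadipate dehydrogenase (log2 fold change -1.28), Dbt, the branched-chain acyltransferase (-0.57), and Ppm1k, the phosphatase of the branched-chain complex (-0.59). Their adjusted p in the edgeR quasi-likelihood test was 0.000176, 0.00876 and 0.0404.

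Genes that regulate Pdk4 or share its known regulators (PPAR, FOXO, glucocorticoid and ERR) did not move one way. Of 24 tested, 5 were higher and 6 lower, against 14.0% and 13.5% of all tested genes, with a median log2 fold change of -0.42. With library totals 9 were higher and 1 lower, against 5846 and 868 of 13706 tested genes. On leaving out 1 library 4 to 6 of the list were higher and 3 to 8 lower, with 3 lower without Fam210aHKO replicate 2. Fgf21, a hormone of fasting and mitochondrial stress, had 72.9, 154 and 118 CPM in Fam210aHKO livers, against 4.43, 2.03 and 3.97 CPM in Ctrl livers (log2 fold change 5.05 ± 0.345, SE, n = 3 each, edgeR quasi-likelihood test, adjusted p = 5.87e-06). Igfbp1 rose by 2.57 and the lipid droplet gene Plin2 by 1.42 on the log2 scale (edgeR quasi-likelihood test, adjusted p = 9.84e-06 and 0.00534). Those lower included the coactivator Ppargc1a (-0.69), the insulin receptor Insr (-0.65) and the transcription factor Hnf4a (-0.77; edgeR quasi-likelihood test, adjusted p 0.00772, 0.00953 and 0.0119). Among the PPAR genes, Ppara was lower (log2 fold change -1.03), Pparg was higher (0.96) and Ppard was not called (-0.48). Their adjusted p in the edgeR quasi-likelihood test was 0.0120, 0.0160 and 0.171.

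Of 18 tested genes of the hypoxia-inducible factor and MYC list linked to Pdk1, 6 were higher and 2 lower, while Pdk1 itself was lower. Of all tested genes 14.0% were higher and 13.5% lower. With library totals 11 of the list were higher and 1 lower, against 5846 and 868 of 13706 tested genes. Myc had 60.2, 41.4 and 19.2 CPM in Fam210aHKO livers, against 2.96, 2.44 and 3.90 CPM in Ctrl livers (log2 fold change 3.69 ± 0.380, SE, n = 3 each, edgeR quasi-likelihood test, adjusted p = 6.2e-05). The glucose transporter Slc2a1 (1.03) and Ndrg1 (0.80) were higher, and the mitophagy receptor Bnip3 (-1.38) and Epas1, which encodes a hypoxia-inducible factor (-0.88), were lower (log2 fold changes, edgeR quasi-likelihood test, adjusted p 0.00561, 0.0142, 0.000196 and 0.00744). The count of higher genes was 3 to 5 on leaving out 1 library. It was 3 without Fam210aHKO replicate 1, without Fam210aHKO replicate 2 or without Ctrl replicate 1.

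**Figure D4:**
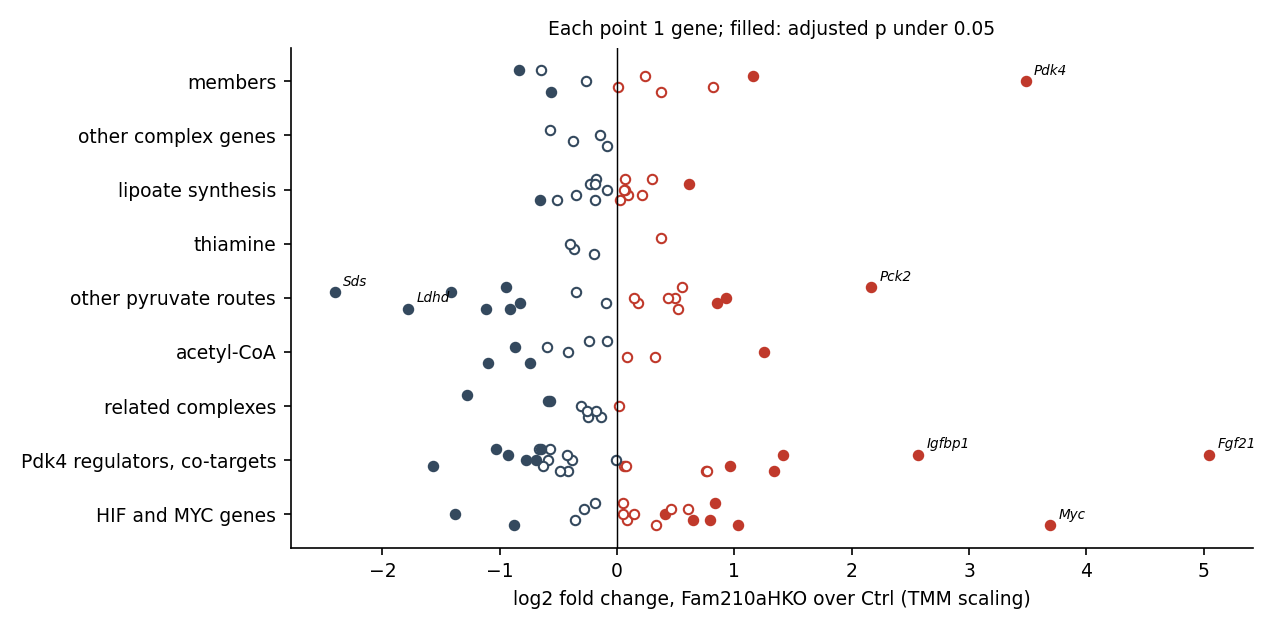
Log2 fold change of each tested gene, Fam210aHKO over Ctrl under TMM scaling, for the members and the 8 pathway lists (marker lists are not drawn), with filled points at adjusted p under 0.05. Pdk4 (3.48) lies apart from the other members, and Fgf21 (5.05) and Myc (3.69) are the only genes drawn further to the right. The row of other complex genes, which holds Mpc2, Pdhx, Dld and Pdpr, is all unfilled.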

How the data were processed

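Poly-A RNA libraries of liver were grouped by the labels' titles; the genotype labels of Fam210aHKO replicates 2 and 3 name other gene numbers. Whole-number counts per gene, without normalization, and FPKM were deposited by the authors; the deposited FPKM values imply a library size of 81.6% to 86.3% of the count total in Fam210aHKO and 55.4% to 60.1% in Ctrl. Per the submitters' processing notes, the tools were FastQC, Trimmomatic, STAR, featureCounts and DESeq2, on mm10; the sources used here do not state strand or multimapping settings.

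Counts were tested with edgeR 4.0.16 (R 4.3.3): filterByExpr at a minimum count of 10, TMM factors, the edgeR 4 form of the quasi-likelihood test (two-sided, group only), Benjamini-Hochberg adjustment over all tested genes. This version's default, the legacy form, was run first, and the edgeR 4 form was then chosen with the legacy results known, to match an earlier analysis of these data. SE is the absolute log2 fold change over the square root of F. The titles and library names do not say that samples of the same replicate number are pairs. Deviations from group means correlated at 0.245, 0.182 and 0.155 for the same number and -0.141 to -0.0262 otherwise. Deviations within a group cancel for each gene, so these values depend on each other and do not settle whether samples are paired. Named genes were all members, Fam210a, up to 3 called genes of smallest p per direction and list (or the 2 most abundant), and the 5 genes most like Pdk4. Pck1, Ppara, Ppard and Pparg were named in addition, after their values were seen, and their alternatives are not given below. Cell type markers are named only to describe the sums of their lists. A gene that this rule names in the thiamine list is not reported here. Members and lists were chosen with earlier results of these data known. Alternatives covered scaling, filters, limma 3.58.1, DESeq2 1.42.0, the block and left-out libraries. Scripts were tested on simulated data.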

Additional observations from a re-analysis of the deposited data

How the results depend on the processing

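Pdk4 and Pdp1 kept their calls in all 19 alternatives, with adjusted p up to 0.000631 and 0.0397. With library totals 6714 genes were called, 87.1% of them higher against 50.9% with TMM factors, and 5 members were higher (Pdk3, Pdk4, Pdp1, Pdhb and Dlat) and 0 lower; that scaling moves the median of all genes by 0.45. With no filter 1 member was lower, and leaving out 1 library gave 1 to 2 lower and 2 higher. Leaving out 1 library gave 2695 to 3661 called genes, and the replicate block 4896. Apart from Pdp2, Dlat and list counts printed above, the block changed no member's call. The legacy, robust and legacy robust forms of the test, added after seeing the data, called 3740, 3772 and 3753 genes. They changed no call of the members or of the other genes named by the rule above. Hepatocyte markers called lower were 8, 7 and 8 in these forms, against 6. Pdk4 had adjusted p 3.38e-05, 0.000367 and 0.000434 in them, and the hepatocyte marker Alb had 0.0423, 0.0505 and 0.0171.

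Signs turned for genes not called: Pdha1 (0.19), Mpc2 (0.0818), Dld (0.38) and Slc19a2 (0.25) with library totals, and Dld between -0.191 and 0.0413 on leaving out 1 library. Mpc1 lay at -0.001566 with median-of-ratios factors, -8.268e-06 with DESeq2, -0.02603 with limma on log2(FPKM + 1) and -0.02601 on log2(FPKM + 0.1), -0.0358 summed with its pseudogene (added after seeing the data), and between -0.157 and 0.276 on leaving out 1 library. Library totals ended the calls of Oxsm, Acat1, Acaa2, Dbt, Ppm1k, Ppargc1a, Insr, Hnf4a and Epas1. Both limma fits on FPKM ended that of Iba57 and no filter that of Ppm1k. Leaving out 1 library ended those of Iba57 (Fam210aHKO replicate 2 or 3, Ctrl replicate 1 or 2), Me2 (Fam210aHKO 2, Ctrl 1 or 3), Ppm1k (Fam210aHKO 1 or 2, Ctrl 1 or 3), Ndrg1 (Fam210aHKO 1, Ctrl 1), Acaa2 and Hnf4a (Fam210aHKO 2). The causes were not tested. Depth limits Pdk3 most, at 5 to 44 counts.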

Other observations

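Slc19a3, a thiamine transporter of the thiamine list, was under the filter on low counts and is given because its values stood out after they were seen. It had 15, 16 and 11 counts in Fam210aHKO livers, against 0, 0 and 1 counts in Ctrl livers. The ratio of scaled totals was 27.9, with a 95% exact binomial interval of 4.74 to 1128 that covers counting error only. With no filter it was called higher in the edgeR quasi-likelihood test (adjusted p = 0.00226).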
